A study of Caenorhabditis elegans with 2 samples.

Results

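The nuclear hormone receptor genes of Caenorhabditis elegans were examined for binding of BLMP-1 in embryos. All protein-coding genes whose symbol is nhr followed by a number were taken from the WBcel235 annotation, leaving out the molting receptor genes nhr-23 and nhr-25. This gave 267 of the 19985 protein-coding genes. Genomic sites had been mapped by ChIP-seq in strain OP109, which carries the unc-119(ed3) mutation and the integrated array wgIs109 with eGFP-tagged blmp-1. Both libraries were made from whole mixed-stage embryos of pooled sexes, with fragments of 150 to 350 bp, and they are the 2 biological replicates of 1 group. No second genotype, stage or treatment was measured. In whole embryos, strong binding in few cells and weak binding in many cannot be told apart.

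Nuclear hormone receptors are transcription factors with a zinc finger domain that binds DNA and a second domain that can bind small lipophilic ligands. Vertebrates and insects have modest numbers of them, whereas nematodes carry a greatly expanded family, most of it derived from an ancestor related to HNF4. A smaller set has clear relatives in other animals. Several members govern fat metabolism, detoxification, molting and developmental timing in the worm. BLMP-1, the homologue of vertebrate PRDM1, is a zinc finger factor that acts in the epidermis and in developmental timing.

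The deposited lists give regions with a summit and a signal value, which is the authors' own score. Its scale is not stated, so the libraries are compared by rank. The optimal IDR (irreproducible discovery rate) list held 843 peaks with signal from 46.12 upwards and a median of 65.51. The pooled list and the list of each replicate held 30000 candidate regions each, ranked here by signal with 1 as the strongest. The pooled list is labelled as peaks and background for input to IDR. A candidate below the IDR list is therefore not by itself evidence of binding. Read depth is unknown. A gene's promoter window ran from 2000 bp before its start to 500 bp after it, and its body was the rest of the gene past the window. Positions are on build ce11 and count from 1. Intervals are 95% exact intervals over genes and cover counting error only.

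Few nhr genes carried a BLMP-1 peak, and those that did lay mostly on the X chromosome. An IDR summit stood in the promoter window of 3 nhr genes, nhr-1, nhr-3 and nhr-14, which is 1.12% (0.232 to 3.25) of the 267. Among the other protein-coding genes 669 of 19718 had one, 3.39% (3.14 to 3.66), and over all genes the share was 3.36%. The other genes include those of mitochondrial DNA, which also held IDR peaks. Of the 843 IDR summits 818 were nuclear. In the body outside the window an IDR summit stood at nhr-3, nhr-66 and nhr-91, again 1.12% (0.232 to 3.25), against 1.04% (0.903 to 1.19) of the other genes and 1.04% of all genes. Both places together gave 5 nhr genes, 1.87% (0.611 to 4.32), against 4.28% (4 to 4.57) of the other genes and 4.25% of all genes. The body share thus stood near the background, and the window share lay below it. No test over the gene list was made.

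The 6 IDR summits at these 5 genes are printed here with 50 bp on each side, because they are the only IDR peaks that the family's windows and bodies held. Each reads 5′ to 3′ on the strand of its gene, from the RefSeq WBcel235 genome, with the summit at base 51. Capitals mark GAGAGA or its reverse complement TCTCTC.
nhr-91, intron, chrX:15310330-15310430, plus strand: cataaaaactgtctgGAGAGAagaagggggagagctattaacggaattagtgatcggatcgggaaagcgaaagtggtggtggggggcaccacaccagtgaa
nhr-3, intron, chrX:14560450-14560550, plus strand: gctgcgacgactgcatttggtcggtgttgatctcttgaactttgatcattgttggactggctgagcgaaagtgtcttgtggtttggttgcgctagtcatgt
nhr-3, upstream, chrX:14557945-14558045, plus strand: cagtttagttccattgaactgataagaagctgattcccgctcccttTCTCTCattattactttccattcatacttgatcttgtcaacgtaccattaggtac
nhr-14, upstream, chrX:8477607-8477707, minus strand: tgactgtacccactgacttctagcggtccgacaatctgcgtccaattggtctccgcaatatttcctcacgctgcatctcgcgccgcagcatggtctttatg
nhr-66, intron, chrIV:8233490-8233590, minus strand: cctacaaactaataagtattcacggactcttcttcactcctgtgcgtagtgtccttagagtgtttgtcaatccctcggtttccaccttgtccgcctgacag
nhr-1, upstream, chrX:17513757-17513857, plus strand: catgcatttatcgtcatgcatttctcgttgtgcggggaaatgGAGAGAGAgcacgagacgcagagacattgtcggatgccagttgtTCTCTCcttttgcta

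The strongest peak of the family lay in nhr-91, the gene for the worm relative of vertebrate germ cell nuclear factor. It spans chrX:15310235-15310540 and its signal was 408.7, rank 10 of the pooled list. In the replicates it had signal 253.9 at rank 14 in replicate 1 and signal 137.4 at rank 12 in replicate 2. Both replicates thus placed it near the top, with summits 1 and 5 bp from the IDR summit. The summit stood 1011 bp past the gene start in the long intron that separates the first exons from the rest. Of the 6 annotated coding transcripts, 5 begin within 12 bp of the gene start and 1 begins 3294 bp after it, downstream of the peak. The window of nhr-91 held no IDR summit, and its best pooled candidate there, 1538 bp upstream, had signal 29.71 and rank 2432.

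A second intronic summit in nhr-91 was high in one library only. At 1718 bp past the start, replicate 1 had a region of signal 29.95 at rank 839, while replicate 2 had no overlapping candidate. In the pooled list the corresponding region ranked 8468.

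The gene nhr-3 was the only member with an IDR summit both in its window and in its body. The intronic peak at chrX:14560469-14560552 had signal 88.67 and pooled rank 216. Its signal was 59.15 in replicate 1 and 37.57 in replicate 2, at rank 206 in each. The upstream peak at chrX:14557837-14558152 had signal 57.75 and pooled rank 542, with its summit 509 bp before the start. It had signal 34.02 at rank 650 in replicate 1 and signal 23.28 at rank 670 in replicate 2. The 2 peaks were thus ordered the same way in both replicates, with the intronic one higher. The intronic peak was 84 bp wide, while the other 5 were 306 to 316 bp wide.

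At nhr-14 the peak lay far from any other gene start. NHR-14 is a receptor known to control genes of iron uptake. The peak at chrX:8477499-8477814 had signal 82.16 and pooled rank 251, and its summit stood 1479 bp before the start. It had signal 40.56 at rank 461 in replicate 1 and signal 33.8 at rank 271 in replicate 2. The next protein-coding gene upstream was 19126 bp away, and the next closest gene start, that of mec-10, was 7343 bp from the summit.

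The peak of nhr-66 lay in its first long intron on chromosome IV. NHR-66 acts with NHR-49 in the control of lipid genes. The peak at chrIV:8233382-8233697 had signal 57.53 and pooled rank 544, and its summit stood 3062 bp past the gene start. It had signal 38.92 at rank 490 in replicate 1 and signal 23.66 at rank 638 in replicate 2. Several shorter transcripts of nhr-66 begin inside the gene, and the summit stood 1702 bp upstream of the nearest such start. Counted from any coding transcript start, nhr-66 would join the promoter group, which then held 4 genes.

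The peak of nhr-1 was the weakest of the 6 and the least even between libraries. The peak at chrX:17513649-17513964 had signal 48.75 and pooled rank 766, with its summit 256 bp before the start of this 14135 bp gene. It had signal 23.25 at rank 1638 in replicate 1 and signal 27.01 at rank 463 in replicate 2. It was therefore outside the 843 strongest regions of replicate 1 and within those of replicate 2. For all 6 summits the nearest protein-coding start was that of the nhr gene itself, and no other protein-coding gene's window held them.

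**Figure D1:**
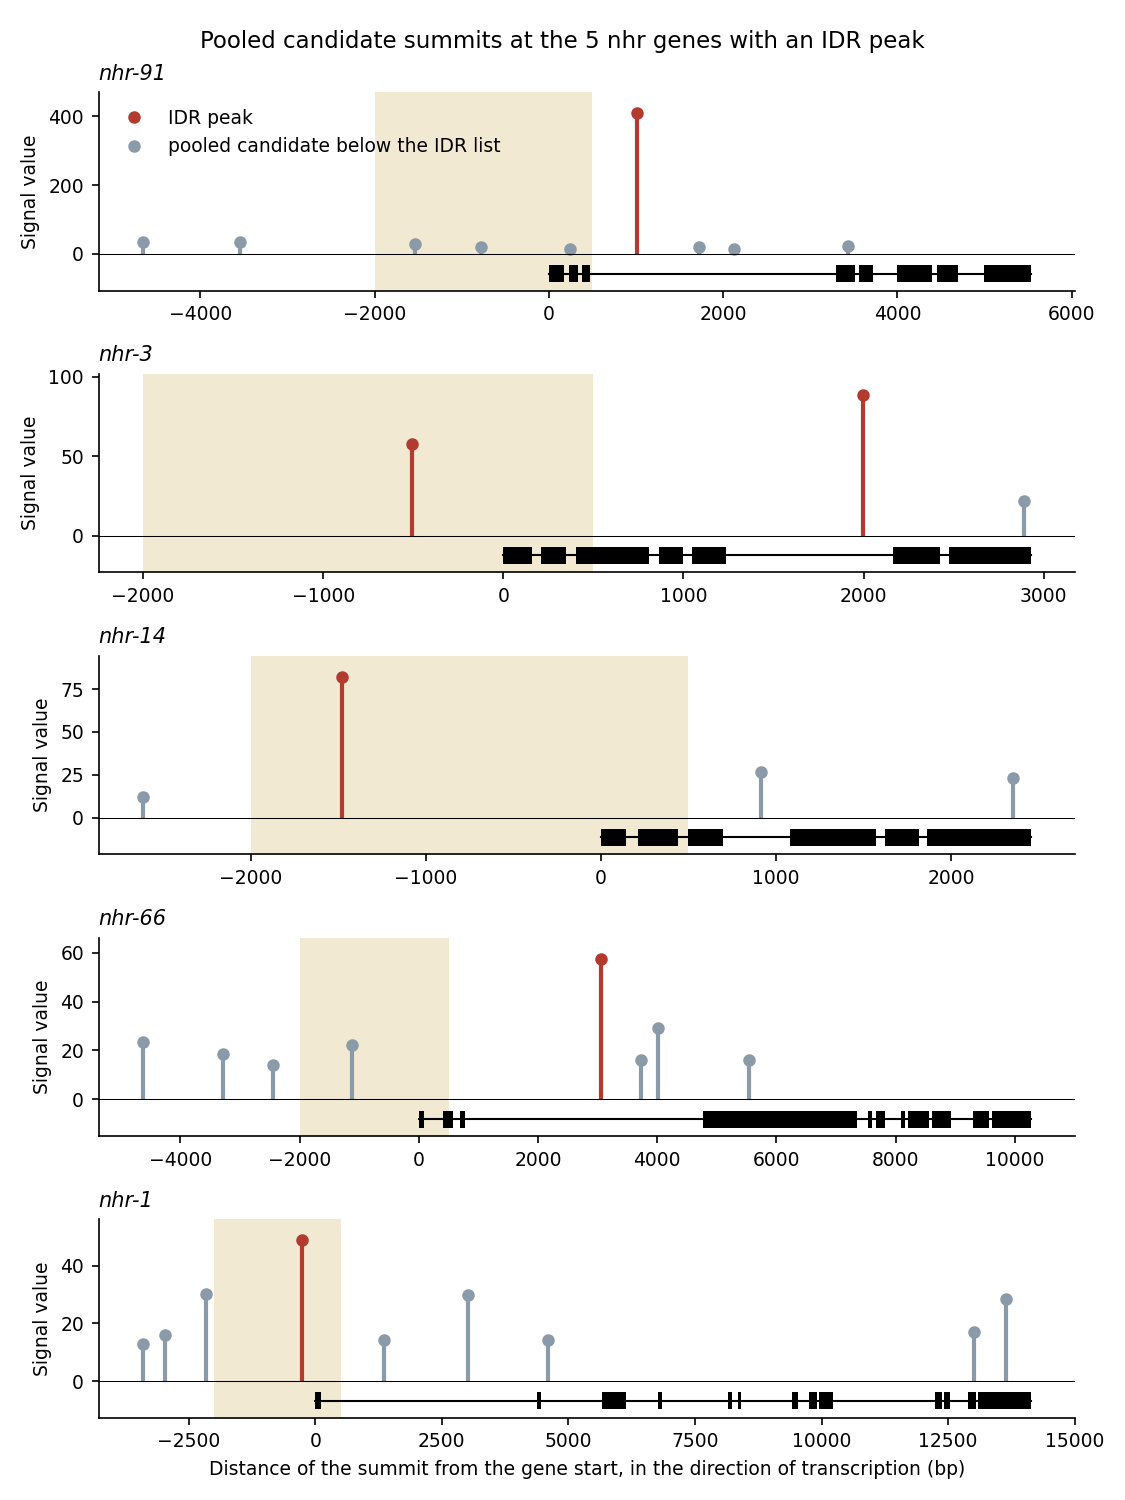
Signal value of each pooled candidate summit (vertical axis, the authors' score) against its distance in bp from the gene start, one panel per gene. Red marks IDR peaks and grey marks candidates below the IDR list, the shaded band is the promoter window, and black boxes are merged exons. The nhr-91 peak at 408.7 lies in the long intron, nhr-3 has peaks on both sides of its first exons, and the peaks of nhr-14 and nhr-1 lie upstream.

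None of the 6 summits had the BLMP-1 core AAGTGAAA within 50 bp, on either strand. Among all 818 nuclear IDR summits 127 had it, 15.5%, which lies within the interval of the 6 summits, 0 to 45.9%. With 1 mismatch allowed, 1 of the 6 had a match, the nhr-91 summit, against 434 of the 818, 53.1%. GAGAGA can overlap the core by at most 1 base and was also searched on both strands. It was at 3 of the 6, 50% (11.8 to 88.2), against 250 of the 818, 30.6%, which also lies within the interval. The 3 were nhr-1, with overlapping copies that begin 8 and 6 bp before the summit and another on the opposite strand 36 bp after it, nhr-3 upstream with 1 copy and nhr-91 with 1 copy 35 bp before the summit. The median G+C content of these stretches was 48.5% at the 6 summits and 43.6% at all nuclear IDR summits. A word match describes these letters only.

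The X chromosome held 22 of the nhr genes and 4 of the 5 with an IDR summit. On X, 3 of 22 nhr genes had one in the window, 13.6% (2.91 to 34.9), against 89 of 2709 other genes, 3.29% (2.65 to 4.03), with 3.37% over all genes of X. In the body 2 of the 22 had one, 9.09% (1.12 to 29.2), against 1.77% (1.31 to 2.34) of the other genes of X and 1.83% of all. Per length the contrast was smaller, with 10.3 IDR summits per Mb of body in nhr genes of X, from 2 summits, and 6.56 in other genes. Window and body together gave 18.2% (5.19 to 40.3), against 4.87% (4.09 to 5.75) of the other genes of X and 4.98% of all. The nhr genes of X were also longer, with a median of 4402 bp against 2532 bp for other genes of X. Their median gap to the next protein-coding gene upstream was 4420 bp, against 2108 bp. The part of gene length and spacing in these shares was not tested.

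Chromosome V, where most of the family lies, gave no bound member. It carried 167 nhr genes, 62.5% of the family, against 24.5% of the other genes. Not 1 of the 167 had an IDR summit in its window or body, with an interval of 0 to 2.18%, while 128 of 4827 other genes of V had one, 2.65% (2.22 to 3.15), and 2.56% of all genes of V did. In the window alone the share was 2.18% of the other genes of V and 2.1% of all. The closest start of an nhr gene on V to any IDR summit was that of nhr-193, 13754 bp away. The median distance was 259260 bp for the nhr genes of V, against 91952 bp for the other genes of V. Many nhr genes of V are neighbours, so they share the same stretches without peaks.

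The window count stayed below the rate of other genes when each chromosome's rate was used, and the body count did not. With each chromosome's share among other genes applied to the nhr genes of that chromosome, 7.21 of them would have a summit in the window, against the 3 observed. With shares taken separately for the left, centre and right of each chromosome the figure was 6.74. For the body the same sums gave 2.07 and 1.81, against the 3 observed. These sums take no account of body length. Per length the order was the reverse, with 3.85 IDR summits per Mb of body in nhr genes and 4.46 in other genes. On the nuclear chromosomes other than V, 3 of 100 nhr genes had a summit in the window, 3% (0.623 to 8.52), against 3.71% of the other genes. In the body there were also 3 of 100, against 1.16% of the other genes, and both places together gave 5%, against 4.73%. Outside X the window count was 0 of 245, against 3.34%, and the body count was 1 of 245, 0.408%, against 0.888%. Over the whole family, 199 nhr genes, 74.5%, started more than 50000 bp from any IDR summit, against 50.9% of the other genes.

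**Figure D2:**
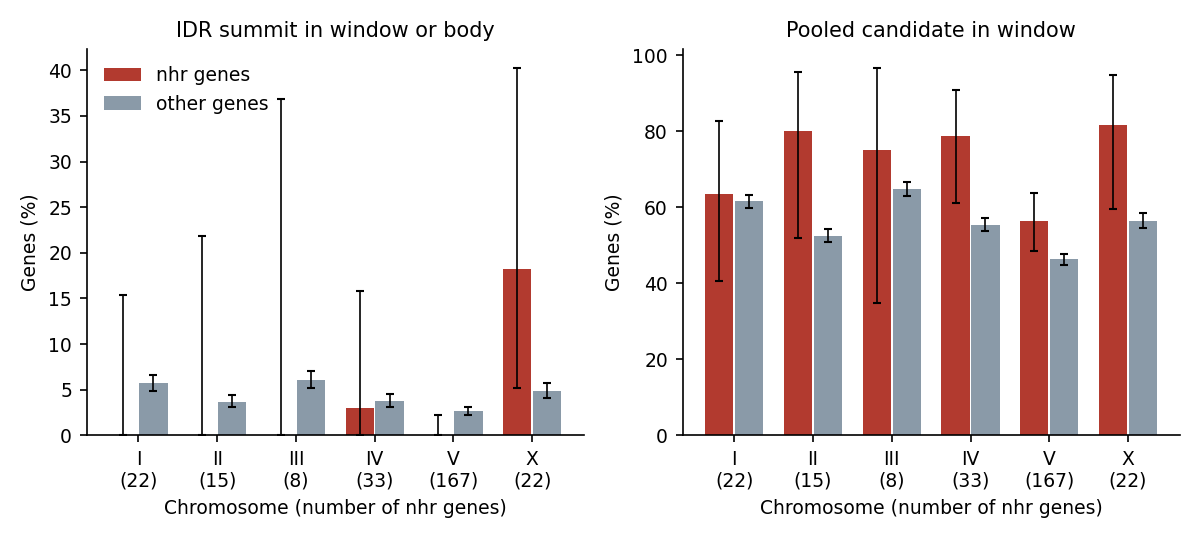
Share of genes in percent by chromosome for nhr genes (red, left) and other protein-coding genes (grey, right), with 95% exact intervals as bars. The left panel counts genes with an IDR summit in the window or body, where X reaches 18.2% for nhr genes and V has none, and the right panel counts genes with any pooled candidate in the window.

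The edge of the promoter window left out several members with strong peaks a little farther upstream. Just outside that edge, the nhr-34 summit lay 2022 bp from its start and that of nhr-40 2062 bp. The farthest summit inside the window, that of nhr-14, lay 1479 bp from its start. NHR-40 is needed for embryonic development and body muscle. The nhr-34 peak had signal 121.5 at rank 118, with rank 117 in replicate 1 and rank 175 in replicate 2. The nhr-40 peak had signal 78.58 at rank 272, with ranks 288 and 306 in replicates 1 and 2. Both replicates thus held these peaks among their 843 strongest regions.

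With the window reaching 5000 bp upstream, 4 more members followed. At nhr-45, linked to detoxification, a summit of signal 75.67 lay 2312 bp upstream, at rank 1123 in replicate 1 and rank 187 in replicate 2. At nhr-88 a summit of signal 64.23 lay 2565 bp upstream, at ranks 516 and 332. At nhr-281 a summit of signal 91.89 lay 2277 bp upstream but only 387 bp from the start of F28H6.7. The summit of signal 132.9 at 3897 bp before nhr-85, which encodes a relative of Rev-erb, lay 605 bp from the start of hpo-2. For nhr-34, nhr-40, nhr-45 and nhr-88 the closest protein-coding start was that of the nhr gene.

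With this reach and the bodies, 11 of 267 nhr genes were counted, 4.12% (2.07 to 7.25), against 1244 of the other genes, 6.31% (5.97 to 6.66), and 6.28% of all genes. On X the count was 7 of 22, 31.8% (13.9 to 54.9), against 6.98% (6.05 to 8) of the other genes of X. On V it was again 0 of 167, against 4.14%. Of these 6 further summits none had the core within 50 bp, and GAGAGA was at that of nhr-88.

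Below the IDR list, the pooled candidates gave the nhr genes a higher share than the other genes, and replicate 2 alone did not. A pooled candidate summit stood in the window of 170 nhr genes, 63.7% (57.6 to 69.4), against 55.1% (54.4 to 55.7) of the other genes and 55.2% of all genes. With each chromosome's share among other genes applied to the nhr genes, 135 would be counted. The share among nhr genes was the higher one on each of the 6 nuclear chromosomes, although the intervals overlapped on I, II and III. The replicates differed in this: replicate 1 had a window candidate at 60.7% of nhr genes, against 54.9% of the other genes, and replicate 2 at 54.3%, against 57.3%. In the pooled list the remaining 97 had none in the window, and 68 had none in the window or the body. In the body a candidate stood at 41.6% of nhr genes, against 34% of the other genes and 34.1% of all. Per length the bodies held 287 candidate summits per Mb in nhr genes and 265 per Mb in other genes. Another protein-coding start lay in the window of 24.3% of nhr genes, against 40% of the other genes.

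The best candidate of a typical member was of middling rank. Among the 170 with a candidate in the window, the median best pooled rank was 11049, with quartiles of 5291 and 20388, against 10552 with quartiles of 4358 and 18822 for 10855 other genes. In replicate 1 the median was 11628 over 162 nhr genes and 10953 over the other genes, and in replicate 2 it was 13333 over 145 nhr genes and 11323 over the other genes. At rank 2000 or better stood 17 nhr genes, 6.37%, against 7.3% of the other genes and 7.29% of all. On X the 18 nhr genes with a candidate had a median best rank of 5998, against 9983 for the other genes of X. On V the medians were 12208 and 12134.

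**Figure D3:**
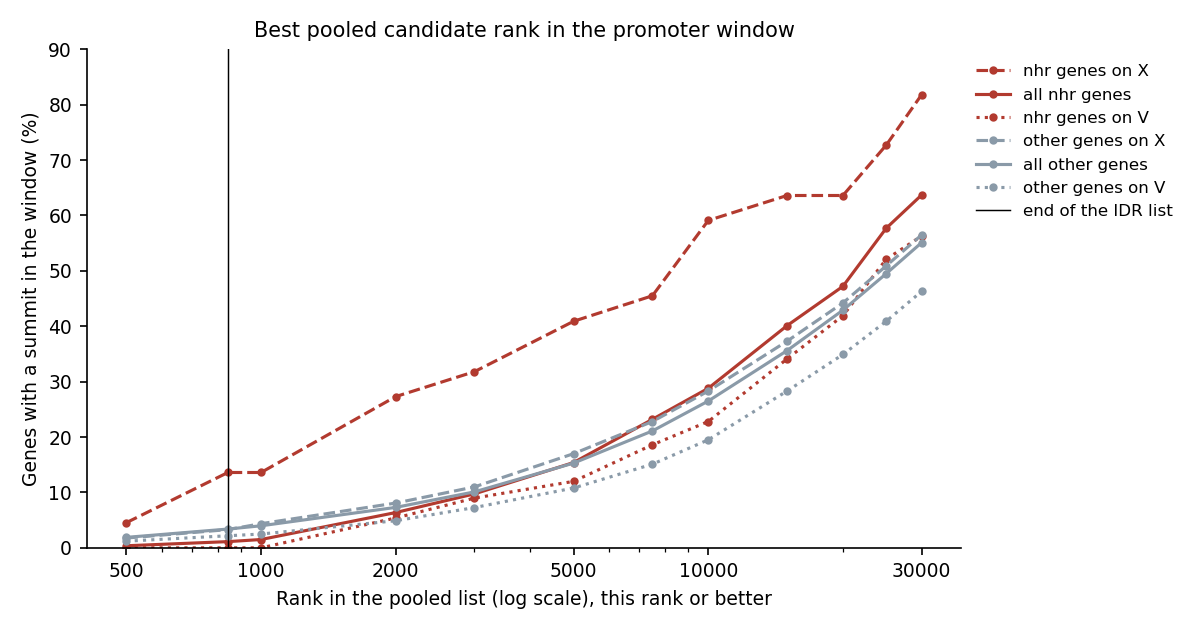
Cumulative share of genes (percent) whose best pooled candidate in the promoter window has a given rank or better (log axis), for nhr genes in red and other genes in grey, over all chromosomes, X and V. At rank 2000 or better the nhr genes of X stand at 27.3% and those of V at 5.39%, against 8.08% and 4.89% of the other genes of X and V.

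The members closest to the IDR list were mostly weaker in one replicate. The weakest IDR peak had signal 46.12 and the first candidate beyond the list 46.11, so the list matched the 843 strongest pooled regions. Uneven ranks were not limited to regions outside it. The IDR peak of nhr-1 had rank 1638 in replicate 1 and rank 463 in replicate 2. In an intron of nhr-17, on X, a summit had signal 45.99 at rank 848, with rank 973 in replicate 1 and rank 996 in replicate 2. In the windows, the best members without an IDR summit were nhr-21, nhr-135, the pair nhr-50 and nhr-63, and nhr-255. The nhr-21 summit, 16 bp past the start, had signal 44.49 at pooled rank 901, with signal 31.93 at rank 730 in replicate 1 and signal 17.22 at rank 1611 in replicate 2. The nhr-135 summit, 202 bp upstream, had signal 41.11 at rank 1062, with ranks 1312 and 2691 in replicates 1 and 2.

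The neighbours nhr-50 and nhr-63 shared 1 summit between their starts, of signal 39.3 at rank 1155. It lay 112 bp upstream of nhr-50 and 1845 bp upstream of nhr-63, at rank 6482 in replicate 1 and rank 844 in replicate 2. The nhr-255 summit, 428 bp upstream, had signal 36.62 at rank 1379, with rank 1868 in replicate 1 and rank 9001 in replicate 2. Of these 4 window summits and the nhr-17 one, only the last had nearly the same rank in both libraries.

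Both replicates held a window candidate at a share of nhr genes close to that of other genes. Of the 267 nhr genes, 101 had a window candidate in both replicates, 37.8%, against 35.9% of the other genes. Replicate 1 alone had one at 61 nhr genes, 22.8%, against 18.9%, and replicate 2 alone at 44, 16.5%, against 21.4%. The other 61 nhr genes had one in neither, 22.8%, against 23.8%. Across the 101 genes Spearman's rho of the best window ranks was 0.175, and without the 3 genes bound by IDR it was 0.101 over 98, while across 7086 other genes it was 0.343. These are descriptions across genes within a single pair of libraries, and the genes of a pair share library depth.

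Counting the 843 strongest regions of replicate 1 alone, 4 nhr genes had a summit in the window, nhr-3, nhr-14, nhr-21 and nhr-58, which is 1.5%, against 3.2% of the other genes and 3.17% of all. With the 843 strongest of replicate 2 there were 5, nhr-1, nhr-3, nhr-14, nhr-22 and nhr-57, which is 1.87%, against 3.21% of the other genes and 3.19% of all. Only nhr-3 and nhr-14 were in both sets. NHR-57 is known as a target of the hypoxia pathway, and its summit ranked 715 in replicate 2 and 29995 in replicate 1. The nhr-58 summit ranked 699 in replicate 1, and the region that overlaps it ranked 22743 in replicate 2. For bodies, replicate 1 gave the same 3 genes as the IDR list, 1.12%, against 1.02% of the other genes and 1.02% of all. Replicate 2 gave 6, 2.25%, against 1.12% of the other genes and 1.13% of all. It added nhr-34, nhr-47 and nhr-142, of which the last 2 had no overlapping candidate in replicate 1.

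**Figure D4:**
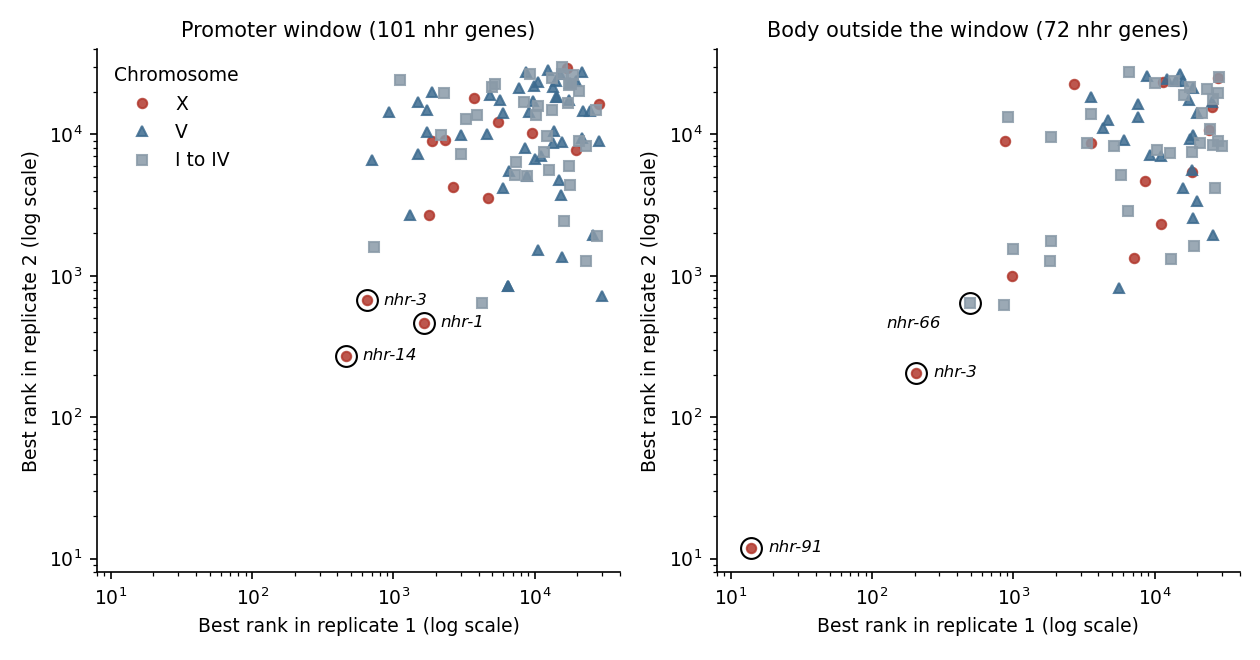
Best rank of each nhr gene's candidates in replicate 1 (horizontal, log scale) and replicate 2 (vertical, log scale), in the window on the left (101 genes) and in the body on the right, coloured by chromosome. Circled and named points have an IDR summit there, and nhr-91 stands apart at best ranks 14 and 12.

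By known role, 3 of the 5 genes with an IDR summit were in a list, nhr-91, nhr-66 and nhr-14, each in a different one, while nhr-1 and nhr-3 were in none. The lists held 9, 10, 6 and 3 of the 267 nhr genes, with nhr-8 in both the conserved and the stress list. They were chosen with earlier results of these data known. Over all protein-coding genes 4.25% had an IDR summit in window or body. Nothing about roles is read from these counts. Of the 9 receptors with relatives outside nematodes, nhr-91 alone had an IDR summit, in its body. The other 8 had none in window or body. Their best pooled window ranks were 3437 at nhr-85, 3615 at nhr-8, a relative of the steroid receptor gene daf-12, 4177 at nhr-41, of the TR2 and TR4 type, 12015 at nhr-239, 16437 at nhr-67, the tailless homologue, and 26918 at nhr-48. At nhr-6, of the NR4A type, and at nhr-111 the window held no pooled candidate. The conserved genes were longer than the rest of the family, with a median length of 5191 bp against 2266 bp.

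Among 10 receptors of lipid and energy metabolism, nhr-66 alone had an IDR summit. The fatty acid regulator gene nhr-49 had its best window candidate at rank 6376, and nhr-80, which controls fatty acid desaturation, at rank 13025. In nhr-10, a regulator of propionate breakdown, an intronic candidate reached pooled rank 1063 although the overlapping regions ranked 23622 in replicate 1 and 20824 in replicate 2. The window ranks were 8105 at nhr-64, 6927 at nhr-69, 4647 at nhr-114, 11358 at nhr-10 and 18844 at nhr-62. At nhr-13 and nhr-68 the window held no pooled candidate.

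Among 6 receptors of stress and xenobiotic responses, nhr-14 alone had an IDR summit in its window. At nhr-57 the best window rank was 1787 and at nhr-45 it was 20071, while nhr-86 and nhr-176 had no pooled candidate there. The 3 embryonic receptors had none in window or body, with best window ranks of 1996 at nhr-40, 3566 at nhr-2, which is active in early embryos, and 23712 at nhr-60.

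In 2 other transcription factor families the counts were small too, but the bZIP share in the window was above that of all genes. Among 17 bZIP genes with atf or zip symbols 3 had an IDR summit in the window, 17.6% (3.8 to 43.4), and 0 in the body. Among 63 homeobox genes with ceh symbols 0 had one in the window and 0 in the body (0 to 5.69% for each). The interval of the ceh genes contains the share of the nhr genes, and that of the small bZIP group lies above it in the window, where 3.36% of all genes had a summit. No order of the families was tested. The molting receptor genes, kept apart here, had no IDR summit in their windows, while nhr-25 had 2 in its body and nhr-23 none in window or body.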

How the data were processed

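ChIP-seq peak lists of 2 replicates were used, on build ce11, which is the WBcel235 assembly. Per the deposited file descriptions, the candidate lists were derived from ChIP alignments and a control file, and the IDR list from the pooled and replicate lists. Which aligner, peak caller and IDR threshold were used is not given in the sources used here. Ranks rest on the deposited signal value, the authors' score per region. The deposited -log10 q value was used in 1 alternative, and it stood at its ceiling in 93.6% of IDR peaks. Read depth is unknown. Summit positions come from the deposited offset column. Lists on ce10, the signal tracks and a possible control experiment named in the labels were not used here.

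Summits were assigned to Ensembl release 115 protein-coding genes with Python 3.11.15, pandas 2.3.3 and SciPy 1.17.1. The assignment was tested on simulated data, where all 200 planted summits were placed as planted. Shares, medians and exact (Clopper-Pearson) intervals are given, with no test, since there is 1 group and no contrast between samples. Members and role lists were chosen with earlier results of these data known. Named genes are all members with an IDR summit in window or body, the role list members, and the 5 genes of best window rank without one; the members reached by the wider window, those at the top of 1 replicate, nhr-17, nhr-193 and the body candidate of nhr-10 were named after their values were seen.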

Additional observations from a re-analysis of the deposited data

How the results depend on the processing

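The share of nhr genes with an IDR summit in the window, 1.12%, ranged from 1.5% to 1.87% with a single replicate's own strongest regions, and stood below the share of the other genes in each alternative tried. It moved to 3.37% with 5000 bp upstream (other genes 5.48%), to 0% on V alone and to 0% without X, the last an alternative added after the data were seen. X alone was not among the alternatives, and there the window share was 13.6% of nhr genes, against 3.29% of the other genes. The body share, also 1.12%, ranged from 1.12% to 2.25% with a single replicate, and was 0% on V alone. It lay above the other genes' share in some alternatives and below it in others, such as any position between gene start and end, where the other genes had 1.24%. The median best window rank, 11049 against 10552 for the other genes, was 11628 in replicate 1's list and 13333 in replicate 2's. With a window from 1000 bp upstream to 200 bp downstream the order reversed, with 11090 against 11454 for the other genes. For each move the cause was not tested. With 3 genes per count, single genes decide these values, and unknown depth means that missing peaks cannot be told from shallow sequencing. No paired analysis was possible because both replicates belong to 1 group.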

Other observations

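Receptor genes with other symbols and genes for receptor partners carried several IDR peaks that the nhr counts do not include. In the body of daf-12, the gene for the steroid receptor that binds dafachronic acids, an IDR summit had signal 83.39 at pooled rank 246. Its best body ranks were 212 in replicate 1 and 575 in replicate 2. In sex-1, which encodes a receptor that reads X chromosome dose, a body summit had signal 68.1, with best body ranks of 635 and 247 in replicates 1 and 2. At unc-55, which encodes a COUP-type receptor of motor neurons, a summit of signal 50.07 stood 77 bp past the start, with best window ranks of 216 in replicate 1 and 5520 in replicate 2. The genes fax-1 and odr-7 had no IDR summit in window or body. In these 5 genes both places together gave 3, against 4.25% of all protein-coding genes. The list is small and hand-made, and nothing particular to it is read from this count.

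Of 8 listed genes for hormone synthesis and coregulators, 7 were found in the annotation by symbol and 3 had an IDR summit in the window, where 3.36% of all protein-coding genes had one. This list too was hand-made. The strongest was at strm-1, which encodes a sterol methyltransferase that lowers dafachronic acid levels, with signal 190.8 at pooled rank 46, 379 bp upstream of the start, and best window ranks of 57 and 43 in replicates 1 and 2. At cbp-1, a histone acetyltransferase gene, the signal was 64.45, with ranks 462 and 5062. At din-1, which encodes a corepressor of DAF-12, the signal was 55.07, with ranks 1318 and 365. The genes daf-9, daf-36, dhs-16 and mdt-15 had none in window or body. Of the 3 bound genes only strm-1 was among the 843 strongest regions of both replicates.

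The core AAGTGAAA was present in the window sequence of 27% of nhr genes and 28.9% of the other genes, and at 8 of 240 pooled candidate summits in nhr windows, 3.33% (1.45 to 6.46), against 2.45% (2.18 to 2.73) of 12637 in windows of other genes alone. The 8 candidate summits with the core had pooled ranks from 9969 to 29867. The gene nhr-27, the longest member at 102756 bp, had 9 pooled candidates in its body and no IDR summit, with a best body rank of 6164.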
